A study of Rattus norvegicus with 12 samples.

Results

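Rods, the photoreceptors of dim light, catch photons in an outer segment packed with membrane discs. There light sets off a cascade in which the G protein transducin activates a phosphodiesterase, cyclic GMP falls and cation channels of the plasma membrane close. Arrestin then helps to end the response, and tetraspanin proteins hold the disc rims in shape. The 9 genes described here encode parts of that cascade and of the disc rim: Gnat1, Gnb1, Pde6a, Pde6b, Cnga1, Slc24a1, Sag, Rom1 and Prph2. They were found by exact match of the gene name among 30560 rows of the expression table, with 1 row for each gene, and all 9 were among the 16260 genes that passed a filter on low counts. They are a chosen set and not every gene of the rod cascade.

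Retinas came from 12 rats of 2 groups of 6. Rats of the PBS group had 2 µL of phosphate-buffered saline injected into the vitreous, and rats of the NMDA group had 2 µL of 20 mM NMDA, which opens one class of glutamate-gated channels and injures inner retinal neurons by overstimulation. All 12 animals thus had an intravitreal injection, and the sources used here do not give strain, age, sex or the time from injection to collection. Libraries are named by group and by the number in their labels. Levels are given as CPM, which is a count as a share of its library, scaled between libraries by TMM factors, or as FPKM where genes of different length are compared.

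Of the 9 genes, 7 fell after NMDA, none rose, and Pde6a and Sag did not pass the test (edgeR's quasi-likelihood test, Benjamini-Hochberg adjusted p under 0.05). Of all 16260 genes tested, 37.9% passed, 17.5% lower and 20.4% higher. Higher genes made up 53.8% of all calls, and 64.6% when libraries were scaled by size only, under which the same 7 of the 9 genes were lower. The 7 falls left between 66.9% of the PBS level (Gnb1) and 82.4% (Cnga1). The median log2 fold change of the 9 genes was -0.40, against 0.01 over all genes tested. In 6 of the 9 genes every NMDA library lay below every PBS library, which was so for 8.66% of all genes tested; 9.43% were above in every NMDA library, and 18.1% did not overlap in either direction. None of the 9 genes lay above in every NMDA library. Lower calls were common among abundant genes: of the 95 genes with a mean log2 CPM at least that of Cnga1, the least abundant of the 9 by CPM, 57.9% were lower, with a median of -0.21. These 95 include the 9 genes. In whole retina, fewer rods and less RNA per rod cannot be told apart.

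**Figure D1:**
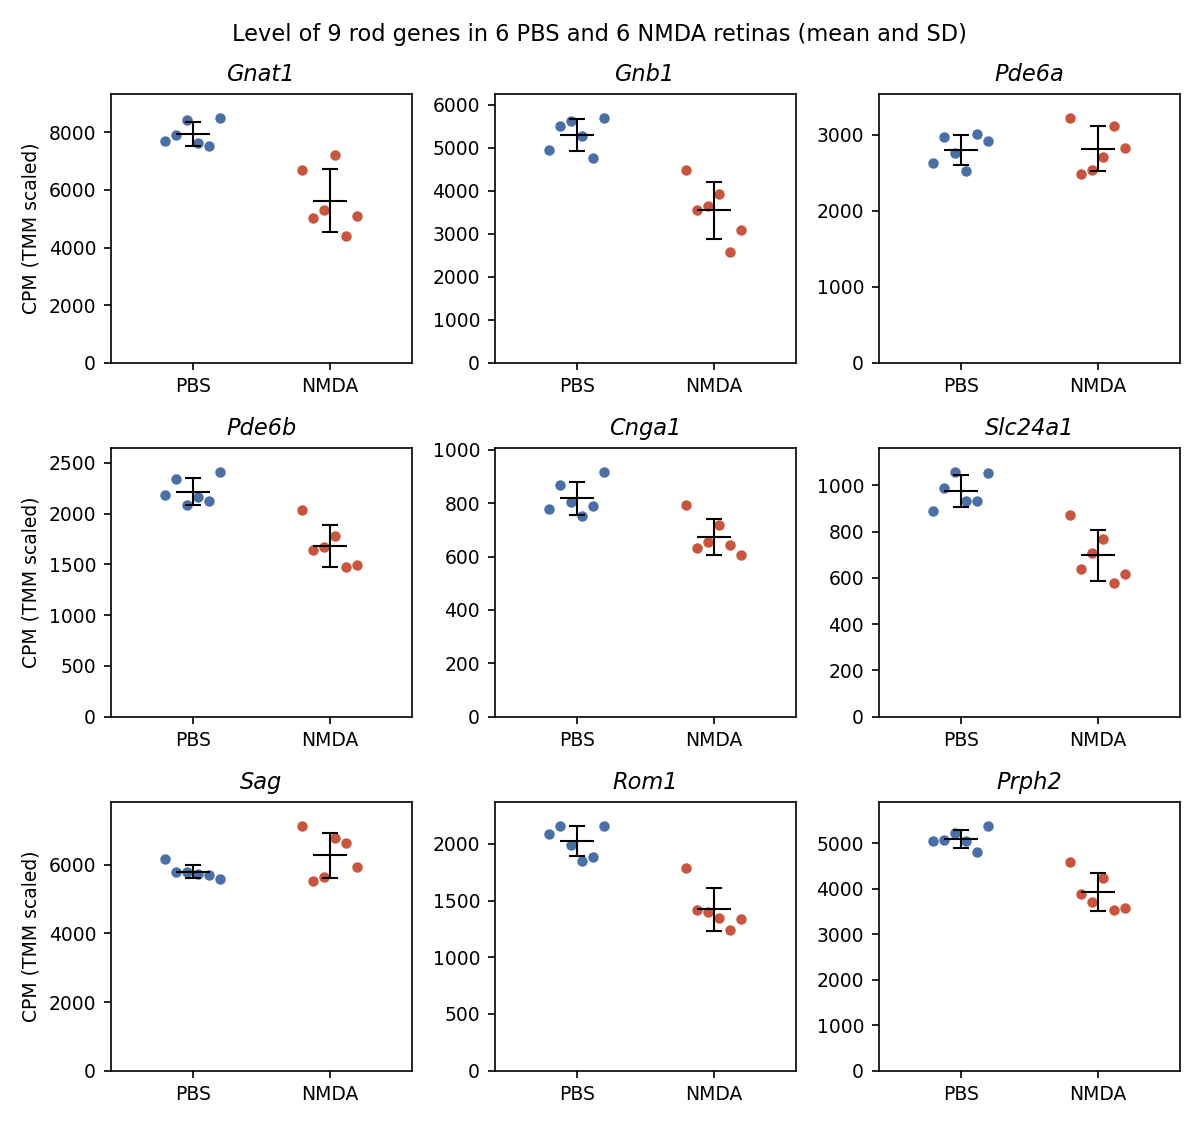
Level of each of the 9 genes in 6 PBS (blue) and 6 NMDA (red) retinas, in CPM on axes that start at 0; points are libraries, and the bar and whiskers are the mean and SD. For Gnat1, Gnb1, Pde6b, Slc24a1, Rom1 and Prph2 every NMDA library sits below every PBS library, whereas the groups overlap for Cnga1, Pde6a and Sag.

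Libraries held between 16415611 and 34022023 counts, and each of the 9 genes had between 13019 (Cnga1 in PBS 3) and 233315 counts (Gnat1 in PBS 1), so that counting error was small beside the spread between animals. The share of all counts that fell to the 9 genes was 3.24% ± 0.106 in PBS libraries and 2.71% ± 0.279 in NMDA libraries (SD, n = 6 each). Of 12 ganglion cell markers 10 fell (median log2 fold change -1.30), as did 10 of 10 amacrine markers (-0.51), 2 of 9 bipolar markers (-0.11) and 5 of 9 Müller glia markers, of which 2 rose (-0.48). Of 12 microglia and macrophage markers 10 rose and 1 fell (1.10). Of 11 pigment epithelium markers 3 fell (0.05), and 0 of 15 lens (-0.23) and 0 of 4 red blood cell markers (0.48) passed. These counts stand beside 17.5% lower and 20.4% higher over all genes tested. No marker on these lists was at 0 in all libraries. Microglia and macrophage markers summed to 70.0 to 110.2 CPM with PBS and 129 to 258 CPM with NMDA, and red blood cell markers to 121 to 194 and 139 to 307 CPM. Pigment epithelium markers summed to 157 to 554 CPM with PBS and 40.2 to 750.2 with NMDA, highest in PBS 5 and NMDA 3, and lens markers to 604 to 3183 and 78.0 to 3356, lowest in NMDA 1. The 37 mitochondrially encoded genes summed to 43346 to 46210.3 CPM with PBS and 36692 to 43890 with NMDA. There 5 of 6 NMDA libraries lay below all PBS libraries and NMDA 1 within their range, and NMDA 5 was lowest. The 7 calls of lower genes held without PBS 5 and NMDA 3, a choice made after the data were seen. They also held when lens crystallin, haemoglobin and mitochondrially encoded genes were left out of the fit, with Gnb1 at -0.58 and Cnga1 at -0.28. The part of microglia markers, or of what moved the mitochondrial sum, in these results was not tested.

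Upstream sequence is shown for 3 of the genes, to set a gene of the pair Pde6a and Pde6b and a disc rim gene, which fell, beside Sag, which did not pass. RefSeq's rat promoter table (GRCr8) held 8 of the 9 genes. The 250 bases before the annotated start of Pde6b (chr14:1511436-1511685, minus strand), Prph2 (chr9:21579075-21579324, minus strand) and Sag (chr9:95916947-95917196, plus strand) read as follows, 5′ to 3′ on the strand of the gene. Capitals mark TAATCC, a site of the kind bound by the photoreceptor homeodomain factors CRX and OTX2, or TGCTGAC, a short MAF family site of the kind bound by the rod factor NRL.
Pde6b: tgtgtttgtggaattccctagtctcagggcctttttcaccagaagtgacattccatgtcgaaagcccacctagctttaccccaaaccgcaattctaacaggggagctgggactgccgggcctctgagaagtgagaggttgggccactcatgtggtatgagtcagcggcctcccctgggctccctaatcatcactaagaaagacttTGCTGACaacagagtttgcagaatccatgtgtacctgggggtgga
Prph2: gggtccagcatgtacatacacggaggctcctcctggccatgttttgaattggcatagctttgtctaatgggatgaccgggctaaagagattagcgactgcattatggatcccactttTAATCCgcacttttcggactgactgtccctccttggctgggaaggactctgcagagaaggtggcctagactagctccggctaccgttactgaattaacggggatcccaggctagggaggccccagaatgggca
Sag: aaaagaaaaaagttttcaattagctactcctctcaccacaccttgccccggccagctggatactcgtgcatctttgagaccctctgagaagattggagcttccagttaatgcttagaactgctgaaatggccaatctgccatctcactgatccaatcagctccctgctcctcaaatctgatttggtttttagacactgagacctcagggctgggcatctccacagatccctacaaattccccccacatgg

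Both motifs were searched on both strands. TAATCC was found in 2 of 8 promoters, those of Prph2, 133 bases before the start, and Pde6a, 67 bases before it, and in 6.33% of all 27457 promoters of the table. TGCTGAC was found in 1 of 8, that of Pde6b, 45 bases before the start, and in 3.55% of all. The windows of Sag, Gnb1, Cnga1, Rom1 and Slc24a1 held neither string of letters. A member with a motif was thus found among the genes that fell (Prph2, Pde6b) and among those that did not pass (Pde6a).

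Transducin couples the activated photopigment to the phosphodiesterase. Gnat1, which encodes its rod alpha subunit (ENSRNOG00000017589, chromosome 8, 108350935 to 108355671), had the highest level of the 9 genes with PBS. Its CPM were 7531, 7800 and 8501 (lowest, median and highest of 6) with PBS and 4397, 5201 and 7225 with NMDA. Every NMDA library was below the PBS range, but NMDA 4 and NMDA 1 stood much nearer to it than the other 4. Mean CPM was 7953 ± 419 with PBS and 5624 ± 1090.0 with NMDA (SD, n = 6 each). On the log2 scale the change was -0.50 ± 0.108 (SE), with an edgeR adjusted p = 0.00289. Chromosome positions come from the deposited table, and no source used here names its build.

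Gnb1 encodes the beta subunit of rod transducin, and it also serves G proteins of many other cells, so that its level is not that of rods alone (ENSRNOG00000016638, chromosome 5, 166075629 to 166142124). Its CPM were 4764, 5392 and 5696 with PBS and 2569, 3607 and 4488 with NMDA. The groups did not overlap, with NMDA 5 lowest and NMDA 1 highest among the NMDA libraries. Its log2 change of -0.58 ± 0.111 (edgeR adjusted p = 0.00136) was the largest of the 9 and left 66.9% of the PBS level. Within libraries the FPKM ratio of Gnat1 to Gnb1 was 2.22 ± 0.0851 with PBS and 2.35 ± 0.250 with NMDA (SD, n = 6 each). A change of that ratio was not shown (log2 difference 0.08, two-sided exact permutation p = 0.268, adjusted p = 0.268 over 5 ratios). Gngt1, the gene of the rod gamma subunit, had 770 ± 93.9 and 811 ± 194 CPM and did not pass (0.07 ± 0.133, edgeR adjusted p = 0.704).

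The rod phosphodiesterase that breaks down cyclic GMP has a pair of catalytic subunits, encoded by Pde6a (ENSRNOG00000017816, chromosome 18, 54676863 to 54748816) and Pde6b (ENSRNOG00000000065, chromosome 14, 1323310 to 1366450). Pde6b had CPM of 2087, 2174 and 2411 with PBS and 1479, 1657 and 2039.6 with NMDA. All 6 NMDA libraries lay below the PBS range, NMDA 1 just below it. It fell to 75.9% of the PBS level (-0.40 ± 0.0754, edgeR adjusted p = 0.00128). Pde6a had CPM of 2523, 2835 and 3006 with PBS and 2487, 2764 and 3218 with NMDA. The groups overlapped widely, with NMDA 2 below and NMDA 1 and NMDA 5 above the PBS range. It changed by 0.01 ± 0.0728 on the log2 scale (edgeR adjusted p = 0.950), with a 95% interval from -0.15 to 0.16, which does not reach the change of Pde6b.

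The difference between these partners was tested within libraries, where no scaling between libraries enters. This and the other member ratios were chosen with earlier results of these data known. Pde6b fell and Pde6a did not pass in the edgeR fit of the same libraries, so the ratio is not separate evidence. Per length, the RNA ratio of Pde6a to Pde6b was 1.06 ± 0.0777 with PBS and 1.42 ± 0.211 with NMDA (FPKM ratio, SD, n = 6 each). It was higher in all 6 NMDA libraries than in any PBS library, by 1.33-fold (exact permutation, two-sided, p = 0.00216, which is the least that 924 assignments can give; adjusted p = 0.00361 over 5 ratios). NMDA 5 and NMDA 6 had the highest ratios, 1.77 and 1.59, and the other 4 NMDA libraries lay between 1.27 and 1.32. Pde6g, the gene of the inhibitory subunit, was called lower (-0.24 ± 0.0815, edgeR adjusted p = 0.0344). That call ended when any of PBS 1 to 4, PBS 6 or NMDA 2 to 6 was left out (adjusted p up to 0.0748) and when libraries were scaled by size only (-0.19, adjusted p = 0.0570).

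**Figure D2:**
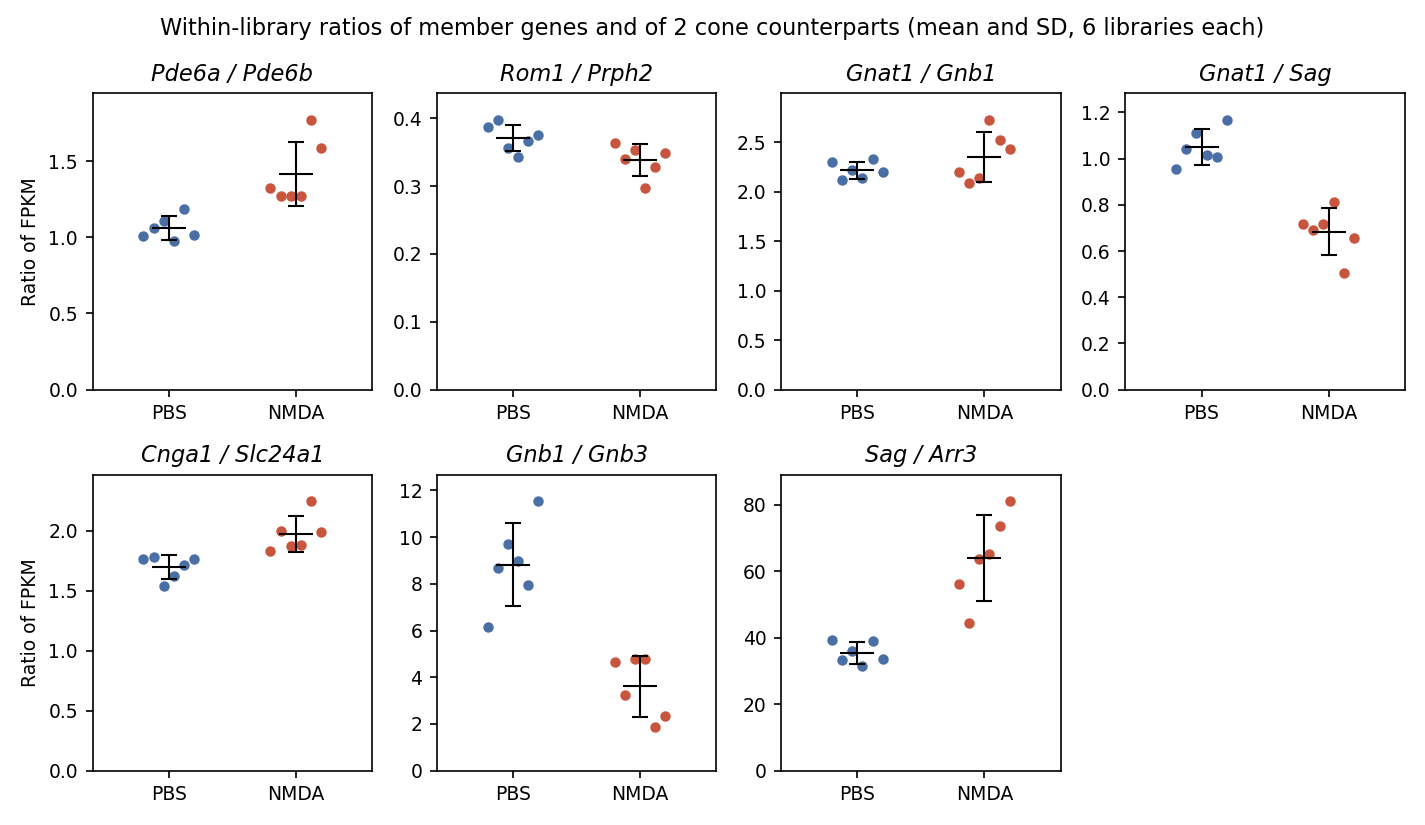
Ratios of FPKM between genes within each library, for 6 PBS (blue) and 6 NMDA (red) retinas, on axes that start at 0; points are libraries, and the bar and whiskers are the mean and SD. Pde6a over Pde6b, Cnga1 over Slc24a1 and Sag over Arr3 are higher in all 6 NMDA libraries than in any PBS library, Gnat1 over Sag and Gnb1 over Gnb3 are lower in all 6, and Gnat1 over Gnb1 and Rom1 over Prph2 overlap.

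The channel that cyclic GMP holds open and the exchanger that removes calcium again share the plasma membrane of the outer segment. Cnga1, the alpha subunit gene of the channel (ENSRNOG00000004778, chromosome 14, 35567125 to 35605065), had CPM of 751, 798 and 917 with PBS and 607, 649 and 792 with NMDA. Here the groups overlapped through NMDA 1 alone, and the other 5 NMDA libraries were below the PBS range. Cnga1 had the smallest of the 7 falls, to 82.4% of the PBS level (-0.28 ± 0.0699, edgeR adjusted p = 0.00704). Its partner subunit gene Cngb1, which holds the channel's beta subunit, fell by 0.32 (SE 0.0708; edgeR adjusted p = 0.0036).

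Slc24a1 encodes the exchanger of sodium for calcium and potassium (ENSRNOG00000052051, chromosome 8, 65440730 to 65466001). It had CPM of 889.8, 961 and 1057 with PBS and 579, 673 and 872 with NMDA, with no overlap. It fell to 71.5% of the PBS level (-0.48 ± 0.0919, edgeR adjusted p = 0.00129). The FPKM ratio of Cnga1 to Slc24a1 was 1.70 ± 0.0960 with PBS and 1.97 ± 0.150 with NMDA (SD, n = 6 each). It was higher in all 6 NMDA libraries than in any PBS library, by 1.16-fold (two-sided exact permutation p = 0.00216, adjusted p = 0.00361 over 5 ratios).

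Sag encodes rod arrestin, which binds the activated photopigment and blocks further transducin activation (ENSRNOG00000018185, chromosome 9, 88469376 to 88508820). Its CPM were 5576, 5772 and 6158 with PBS and 5545, 6292 and 7135 with NMDA. NMDA 1, NMDA 4 and NMDA 5 lay above the PBS range, NMDA 2 just below it, and NMDA 3 and NMDA 6 inside it. The mean was 5799 ± 194 CPM with PBS and 6282 ± 660.5 with NMDA (SD, n = 6 each). Sag did not pass (log2 fold change 0.12 ± 0.0664, edgeR adjusted p = 0.195, 95% interval -0.03 to 0.26).

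Relative to Gnat1 in the same library, Sag RNA was higher after NMDA. Gnat1 fell and Sag did not pass in the edgeR fit of these libraries, so the ratio is not separate evidence. Ratios of Sag to the other transducin subunit genes were not tested. The FPKM ratio of Gnat1 to Sag was 1.05 ± 0.0763 with PBS and 0.684 ± 0.102 with NMDA (SD, n = 6 each). Each NMDA library had a lower ratio than any PBS library, by 1.55-fold on average (two-sided exact permutation p = 0.00216, adjusted p = 0.00361 over 5 ratios). NMDA 5 had the lowest ratio, 0.506, and NMDA 4 the highest of its group, 0.814, against a lowest PBS ratio of 0.956.

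Prph2 and Rom1 encode related tetraspanins that assemble at the disc rim. Prph2 (ENSRNOG00000068377, chromosome 9, 14066156 to 14081454) had CPM of 4803, 5057 and 5375 with PBS and 3522, 3799 and 4586 with NMDA. The PBS libraries were close together, and all NMDA libraries were below them. Prph2 fell to 77.0% of the PBS level (-0.38 ± 0.0661, edgeR adjusted p = 0.000781). Rom1 (ENSRNOG00000019858, chromosome 1, 205824052 to 205826175) had CPM of 1854, 2041 and 2159 with PBS and 1239.6, 1376 and 1788 with NMDA. Of its NMDA libraries, 5 lay between 1239.6 and 1415 CPM, and NMDA 1 stood apart at 1788, still below every PBS library. Rom1 fell to 70.3% of the PBS level (-0.51 ± 0.0800, edgeR adjusted p = 0.000413), the smallest p of the 9.

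Rom1 lies within the span of B3gat3, a glycosyltransferase gene (chromosome 1, 205817378 to 205837807), and the sources used here do not give the strand setting of the counting. Because of this overlap, reads of these genes may have been shared. B3gat3 had 427 ± 19.6 CPM with PBS and 391 ± 13.4 with NMDA. It was called lower (-0.13 ± 0.0391, edgeR adjusted p = 0.0213), and that call held under 18 of 24 alternatives. No other of the 9 genes overlapped another gene of the table. The FPKM ratio of Rom1 to Prph2 was 0.371 ± 0.0196 with PBS and 0.339 ± 0.0234 with NMDA (SD, n = 6 each), with 3 of 6 NMDA libraries below the PBS range. It passed the test (log2 difference -0.13, two-sided exact permutation p = 0.0238, adjusted p = 0.0298 over 5 ratios). The pass ended when PBS 1, PBS 2, PBS 6, NMDA 2, NMDA 4 or NMDA 5 was left out (adjusted p up to 0.0595).

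**Figure D3:**
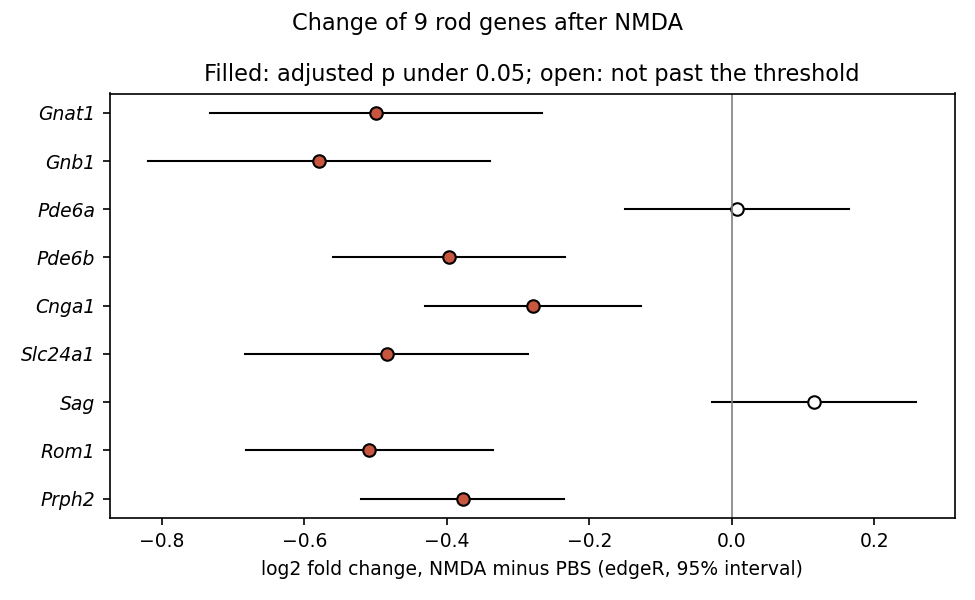
Log2 fold change of each gene, NMDA minus PBS, from the edgeR fit of 12 libraries; lines are 95% intervals, filled points have an adjusted p under 0.05 and open points do not. The filled points lie between -0.58 (Gnb1) and -0.28 (Cnga1), and the intervals of Pde6a and Sag include 0.

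Levels between genes can be compared per length only. By FPKM, Gnat1 (3601 ± 180), Sag (3436 ± 110.2) and Prph2 (3222 ± 109.5) led with PBS (SD, n = 6). Gnb1 (1628 ± 113) and Rom1 (1195 ± 72.1) followed, then Pde6a (832 ± 58.7), Pde6b (786 ± 42.6), Cnga1 (298 ± 21.8) and Slc24a1 (176 ± 12.2). Neighbours in this order that were not apart in every PBS library were Gnat1 above Sag (5 of 6), Sag above Prph2 (5 of 6) and Pde6a above Pde6b (5 of 6).

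With NMDA the order by FPKM was led by Sag (3851 ± 385), before Gnat1 (2632 ± 485) and Prph2 (2564 ± 237). Then came Gnb1 (1125 ± 195), Rom1 (868 ± 103), Pde6a (866 ± 90.8), Pde6b (617 ± 66.6), Cnga1 (254 ± 22.3) and Slc24a1 (129.8 ± 18.5). FPKM carries no TMM factor, so these values describe the order within a group. Gnat1 exceeded Sag in 5 of 6 PBS libraries and in 0 of 6 NMDA libraries, and Pde6a exceeded Rom1 in 0 of 6 PBS and 3 of 6 NMDA libraries. Gnat1 exceeded Prph2 in 6 of 6 and 4 of 6.

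The NMDA libraries varied more among themselves than the PBS libraries. The coefficient of variation of CPM was 3.35% (Sag) to 7.68% (Cnga1) with PBS and 10.1% (Cnga1) to 19.4% (Gnat1) with NMDA, higher with NMDA for each of the 9 genes. NMDA 5 was the lowest NMDA library for 6 genes and stood 1.04 below the PBS mean for Gnb1 on the log2 scale. NMDA 1 was the highest NMDA library for all genes except Gnat1, where NMDA 4 was. NMDA 1 stood 0.12 below the PBS mean for Pde6b and 0.30 above it for Sag. In NMDA 2 all 9 genes, including Sag and Pde6a, lay below every PBS library. In NMDA 5, 7 genes lay below and 2 above the PBS ranges, and in NMDA 1, 6 below, 2 above and 1 within. Without NMDA 1 and NMDA 3, which stood at opposite ends of a principal component of all genes, the 7 calls held and Sag and Pde6a did not pass.

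**Figure D4:**
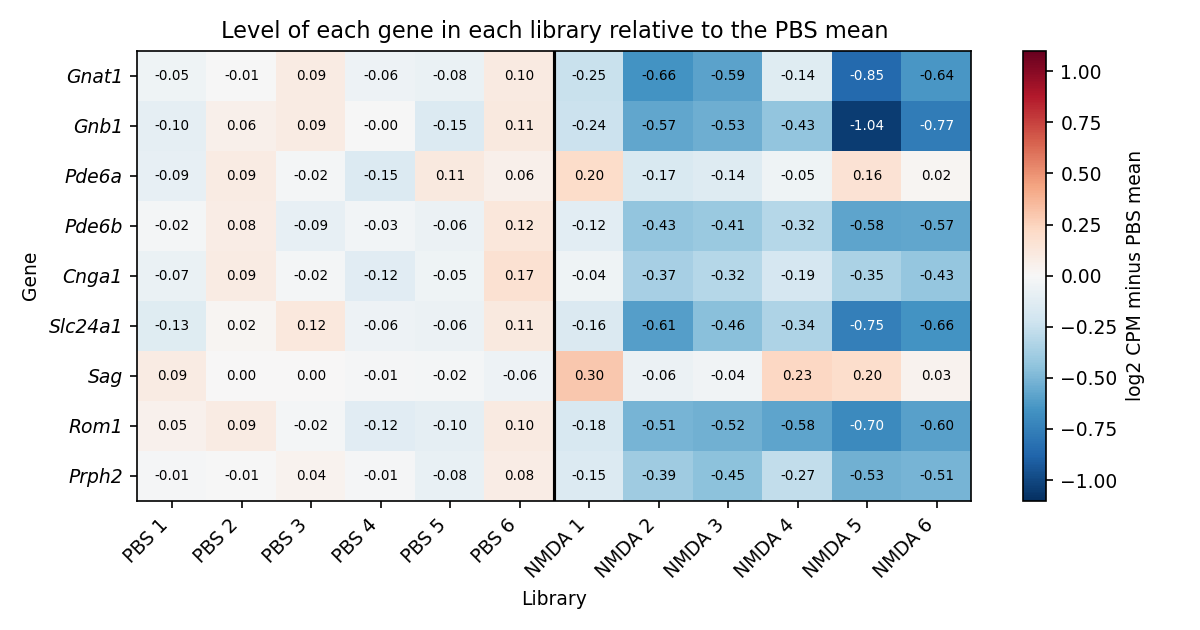
Log2 CPM of each gene in each library minus the mean of the 6 PBS libraries, with the value printed in each cell; blue is lower and red higher than that mean, and the vertical line parts PBS from NMDA. The 7 genes that fell are blue across all 6 NMDA libraries, while Pde6a and Sag hold cells of both colours.

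Likeness of pattern was measured as the root mean square difference, over 12 libraries, of log2 CPM relative to the PBS mean. The most alike of the 36 pairs were Pde6b and Prph2 (0.0569), then Gnat1 and Slc24a1 (0.0856). Sag was nearest to Pde6a (0.127), and the least alike pair was Gnb1 and Sag (0.540). Among 6403 other genes whose mean log2 CPM reached 5, the 10 nearest to the mean pattern of the 9 genes were Wdr17, Tbc1d24, Gnao1, Itsn2, Cacnb2, Slc17a7, Sh3gl2, Dgkd, Soga3 and Nsf, at 0.0528 to 0.0651. Since that pattern is a fall, their choice fixed their direction. All 10 were called lower (edgeR), with log2 fold changes between -0.30 (Dgkd) and -0.39 (Soga3). Slc17a7 encodes the vesicular glutamate transporter of photoreceptor and bipolar cell terminals. Gnao1 encodes a G protein alpha subunit of ON bipolar cells and of other neurons.

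Other genes of light response and recovery fell more often than they rose. Of 18 tested genes of that list, 12 were lower and 1 higher, beside 17.5% lower and 20.4% higher over all genes. Their median was -0.27 (Gucy2e was not tested for low counts). Grk1, the kinase that phosphorylates photopigment so that arrestin can bind, fell, with 691 ± 61.8 CPM in PBS and 466 ± 44.9 CPM in NMDA libraries (SD, n = 6 per group; -0.57 ± 0.0728, edgeR adjusted p = 0.000132). Rcvrn, the recoverin gene, whose product restrains that kinase, fell by 0.49 on the log2 scale. Named after their values were seen as partners of members or as single exceptions, Gnb5, of the complex that shuts transducin off, was at -0.37, and Gucy2f and Guca1a, of cyclic GMP synthesis and its calcium control, were at -0.35 and -0.33. Gucy2d and Guca1b, of the same steps, did not pass (-0.15 and 0.003, edgeR adjusted p = 0.0803 and 0.975). With PBS, mean FPKM was 129 for Gucy2d and 33.5 for Gucy2f, and 648 for Guca1b and 493 for Guca1a. Kcnv2, a potassium channel subunit gene of photoreceptors, was the 1 gene that rose (0.19, edgeR adjusted p = 0.00411).

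Of 12 tested genes of other parts of the outer and inner segment 4 fell and 3 rose, beside 17.5% lower and 20.4% higher over all genes, with a median of -0.22, and without NMDA 1 the number that fell was 8. Prom1, of the growing disc edge, rose, with 490.3 ± 24.4 CPM in PBS and 663 ± 60.1 CPM in NMDA libraries (SD, n = 6 per group; 0.44 ± 0.0588, edgeR adjusted p = 0.000182). Impg2, of the matrix around photoreceptors, rose by 0.53 and Mak, a ciliary kinase gene, by 0.41, each with all NMDA libraries above all PBS libraries. Among those that fell, chosen after their values were seen, were Reep6, a rod membrane trafficking gene (-0.86), Rp1, an axoneme gene (-0.27), and Tulp1, a transport gene (-0.22).

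Of 12 photoreceptor transcription regulators 5 fell and 1 rose, beside 17.5% lower and 20.4% higher over all genes, with a median of -0.19. Nrl, which sets rod fate, fell, with 624 ± 86.4 CPM in PBS and 462 ± 65.6 CPM in NMDA libraries (SD, n = 6 per group; -0.43 ± 0.108, edgeR adjusted p = 0.00711). Crx, a homeodomain gene of all photoreceptors, fell by 0.28, Mef2d, whose product works with it, by 0.20, and Esrrb, a nuclear receptor gene of rods, by 0.82. Chosen after their values were seen, Prdm1 was at -0.32, and Rorb, the 1 that rose, at 0.30 (edgeR adjusted p = 0.0223). Without PBS 6 the call of Rorb ended (adjusted p = 0.0511), and without NMDA 1 and NMDA 3 the number of these genes that fell was 8. Of 11 photoreceptor synapse genes 7 fell and 1 rose, beside the same shares over all genes, with a median of -0.18. Rims2, Bsn and Unc13b, genes of the release site, fell by 0.30, 0.31 and 0.31, and Slc17a7 by 0.32. Elfn1, an adhesion gene named with its values known, was higher by 0.25. In whole retina the level of such genes need not be that of photoreceptors alone. Which cells these changes came from was not tested. Without PBS 6, without NMDA 6, or without PBS 5 and NMDA 3 together, 4 synapse genes fell.

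**Figure D5:**
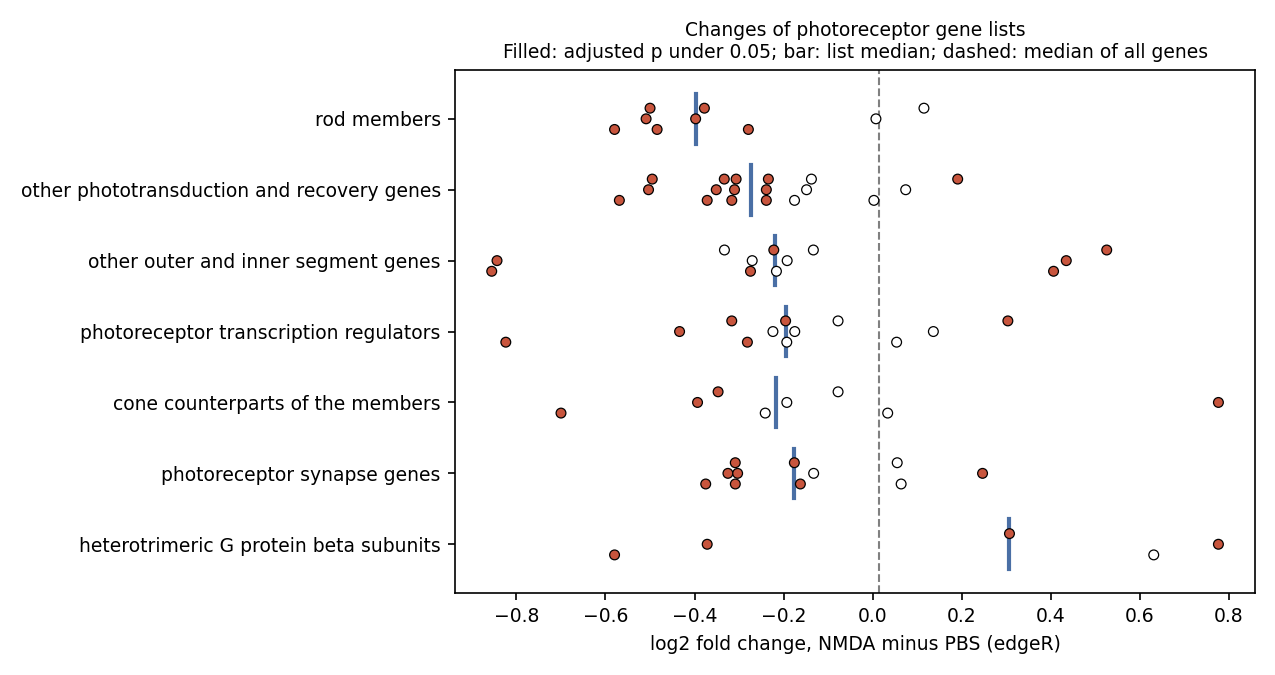
Log2 fold change, NMDA minus PBS, of every tested gene of the 9 rod genes (top row) and of 6 other lists; filled points have an adjusted p under 0.05 (edgeR), blue bars are list medians and the dashed line is the median of all genes tested. List medians run from -0.40 for the 9 rod genes to 0.31 for the beta subunits, against 0.01 for all genes.

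Cones use near relatives of these proteins, and 8 such genes were tested. Of these 3 fell and 1 rose (median -0.22), beside 17.5% lower and 20.4% higher over all genes. The 7 ratios of a rod gene to its cone counterpart were chosen and tested after the data were seen. Sag and Arr3, the arrestin genes of rods and cones, went apart: Arr3 fell, with 149 ± 11.9 CPM in PBS and 91.5 ± 19.3 CPM in NMDA libraries (SD, n = 6 per group; -0.70 ± 0.122, edgeR adjusted p = 0.000846). The FPKM ratio of Sag to Arr3 was 31.4 to 39.3 with PBS and 44.4 to 81.0 with NMDA, higher in all 6 NMDA libraries, by 1.78-fold (two-sided exact permutation p = 0.00216, adjusted p = 0.00758 over 7 ratios).

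The beta subunit genes also went apart. Gnb3, of cone and ON bipolar cells, rose, with 300.1 ± 49.6 CPM in PBS and 514 ± 124 CPM in NMDA libraries (SD, n = 6 per group; 0.78 ± 0.158, edgeR adjusted p = 0.00227). The FPKM ratio of Gnb1 to Gnb3 was 6.17 to 11.5 with PBS and 1.87 to 4.80 with NMDA, lower in all 6 NMDA libraries, by 2.56-fold (two-sided exact permutation p = 0.00216, adjusted p = 0.00758 over 7 ratios). Of the 5 beta subunit genes, Gnb1 and Gnb5 fell, Gnb3 and Gnb2 (0.31, edgeR adjusted p = 0.00745) rose, and Gnb4 did not pass.

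For the other 5 ratios a change was not shown. Gnat2, the cone alpha transducin gene, fell by 0.35 on the log2 scale. Slc24a2, the gene of the cone exchanger, fell by 0.39, and its level in whole retina need not be that of cones alone. The ratios of Gnat1 to Gnat2 and of Slc24a1 to Slc24a2 differed by -0.17 and -0.09 between the groups (two-sided exact permutation, adjusted p = 0.264 and 0.333). Pde6c, the cone phosphodiesterase gene, did not pass (-0.19, edgeR adjusted p = 0.0792). It passed as lower in 4 of 24 alternatives, among them the fit without NMDA 1 (-0.26, edgeR adjusted p = 0.0142), and its sign never turned. The ratio of Pde6a to Pde6c differed by 0.20 and that of Pde6b to Pde6c by -0.21 (two-sided exact permutation, adjusted p = 0.155 and 0.0960). Without NMDA 2 the ratio of Pde6a to Pde6c differed by 0.25 and passed (adjusted p = 0.0202). Cnga3, the cone channel gene, had 2.91 ± 0.605 CPM with PBS, and the ratio of Cnga1 to it gave an adjusted p of 0.998 (exact permutation).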

How the data were processed

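Total RNA of 12 rat retinas, 1 library per rat, was sequenced. Whole-number counts per gene were deposited without scaling, and the authors' FPKM values stand beside them, per the file headers. Bowtie2, RSEM 1.3.1 and DESeq2 1.4.5 are named in the submitters' processing notes without roles. The sources used here do not give the genome build, the strand setting or the handling of multi-mapped reads.

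Counts were filtered (edgeR filterByExpr, count minimum 10, total minimum 15), scaled by TMM and tested in all 12 libraries with edgeR 4.0.16 in R 4.3.3 (robust quasi-likelihood test, two-sided, group as the only term, Benjamini-Hochberg over all genes tested, threshold 0.05). Intervals of 95% use the SE and degrees of freedom of that fit. The script was tested on simulated data. Ratios of counts within libraries were compared by two-sided exact permutation over samples (scipy 1.17.1), and FPKM gives their size. CPM and log2 values use the same scaling, log2 CPM with a prior count of 2.

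The genes, lists and tests were chosen with earlier results of these data known. By rule the text names the 9 genes, from each photoreceptor list up to 4 genes past the threshold, taken in order of adjusted p (marker lists are given as counts), and the 10 most alike genes. Alternatives used DESeq2 1.42.0, limma 3.58.1 (voom weights, or log2(FPKM + 1) and log2(FPKM + 0.1)), other scaling and filters (none, or 10 CPM in 6 libraries), a replicate block, fewer libraries, and scaling without lens, haemoglobin and mitochondrial genes. No 2 libraries had the same counts. Marker list members are not named singly, a departure from that rule, and some genes that it takes are not reported here.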

Additional observations from a re-analysis of the deposited data

Results flagged for a closer look

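Rom1 in NMDA 1 stood apart from the other NMDA libraries at 1788 CPM: its gap to the next library was 0.680 of the range of the group, past Dixon's 95% limit for 6 samples. It was the 1 such case among 42 groups of values checked (the 9 genes and 12 ratios, in each group), and chance gives about 1 in 20. NMDA 1 was also the highest NMDA library for 8 of the 9 genes. Without NMDA 1 the log2 fold change of Rom1 was -0.60 in place of -0.51.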

How the results depend on the processing

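The 7 lower calls held under all 24 alternatives, of which 1, without PBS 5 and NMDA 3, was added after the data were seen, as were the cone ratios. The ratios between members were also chosen with earlier results of these data known. Sag never passed, and Pde6a stayed near 0: its log2 fold change was -0.0021 with DESeq2 size factors, -0.0253 with voom weights, -0.0168 without NMDA 1 and NMDA 3, and -0.0454 to 0.0406 with 1 library left out. Calls over all genes ran from 4565 (at least 10 CPM in 6 libraries) to 7090 (voom). Same-numbered libraries deviated together in some pairs only (correlations -0.19 to 0.15). Differently numbered libraries were not compared in this way, so these values cannot tell whether the numbers pair them. With a replicate block 5593 genes were called and the 7 genes stayed lower, while the log2 differences of Gnb1 over Gnb3 (-1.3556) and Sag over Arr3 (0.8324) had an adjusted p of 0.109 (exact sign-flip permutation). All 6 pairs went the same way in both, and the raw p of 0.0312 is the smallest that 6 pairs can give, so this test could not pass over 7 ratios with 2 of them at that p. Rom1 over Prph2 ran from -0.1546 to -0.0958 with 1 library left out and was -0.1475 without PBS 5 and NMDA 3 (exact permutation, adjusted p = 0.0595). Pde6a over Pde6c ran from 0.1283 to 0.2519. Cnga1 over Cnga3 ran from -0.1157 to 0.1009, and was 0.0763 without NMDA 1 and NMDA 3 and 0.0090 without PBS 5 and NMDA 3. Gngt1 ran from -0.0813 to 0.139 with 1 library left out and was -0.0447 without NMDA 1 and NMDA 3. Lower outer and inner segment genes numbered 7 with voom and without NMDA 1 and NMDA 3, and 4 to 8 with 1 library left out. Lower regulators numbered 8 without NMDA 1 and NMDA 3, and 0 to 1 rose with 1 library left out. Lower synapse genes numbered 4 without PBS 5 and NMDA 3, and 4 to 8 with 1 library left out. The cause of these shifts was not tested. Counting error was small for the 9 genes, and some marker genes had under 1 CPM.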
